A study of Neurospora crassa with 6 samples.

Results

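Proteasome genes of the filamentous fungus Neurospora crassa were taken as the genes whose deposited product text contains "proteasome" or "26S protease regulatory", ignoring case. The pattern found 33 of 9691 genes. Of these, 14 encode the core particle, 7 of its alpha ring and 7 of its beta ring, and 16 encode the regulatory particle, of which 5 are ATPases and 11 are not. The other 3 genes are accessory to the particle. They are NCU05227, named as the maturation factor Ump1, NCU11053, named as non-ATPase subunit 9, and NCU05620, named as activator subunit 4. Particle and role were assigned to each gene from its symbol and product text. The 33 genes lie on all 7 chromosomes, 12 of them on chromosome I. The measurements were made by sequencing poly(A) RNA of wild-type cultures, which were started from conidia, the asexual spores, grown for 6 h and then treated for 1 h. The treatment was 20 µM staurosporine, which inhibits protein kinases and by the study's title kills the cells, or DMSO alone, in each of 3 media. These were standard minimal medium, a medium labelled 0 Ca2+ and a medium with 20 mM CaCl2, and the study compared the response to staurosporine across them. Each of the 6 groups is 1 library, so no value has a replicate error, no difference within a medium or between media was tested, and every such difference describes the libraries compared.

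The proteasome degrades proteins that carry a ubiquitin tag. Its core particle is a barrel whose outer alpha rings gate the entrance and whose inner beta rings hold the proteolytic sites. The regulatory particle binds at the ends of the barrel: its lid and receptors bind the tagged protein and remove the tag, and a ring of ATPases unfolds the protein and threads it into the core. In Saccharomyces cerevisiae the genes of both particles are transcribed together under the transcription factor Rpn4. In N. crassa the proteasome is known for the turnover of the circadian clock protein FRQ after ubiquitination.

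In the libraries with staurosporine, the level of proteasome mRNA differed between media. Levels are in FPKM, fragments scaled by the length of the transcript and by the size of the library, and a ratio is the log2 ratio of FPKM + 1 in 2 libraries. In standard medium 31 of 33 genes were higher with staurosporine than with DMSO, against 54.8% of the genes whose mean FPKM reached 1, called all genes from here on. In 0 Ca2+ medium 23 of 33 were higher, against 46.7% of all genes. In 20 mM CaCl2 medium all 33 were lower, against 60.4% of all genes, although scaling the libraries to equal FPKM sums puts 23 of them above their DMSO level. Set directly against the standard medium, the staurosporine library of the 20 mM CaCl2 medium was lower for all 33 genes, at a median of 0.494 times, and this held under all 4 scalings tried. The same 2 libraries differed at the median of all genes by -0.13 on the log2 scale, against -1.02 for the proteasome genes. The plot of FPKM by library, as deposited, shows the staurosporine library of the 20 mM CaCl2 medium as the lowest point of nearly every gene. How often that library is the lowest was not counted over all genes.

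**Figure D1:**
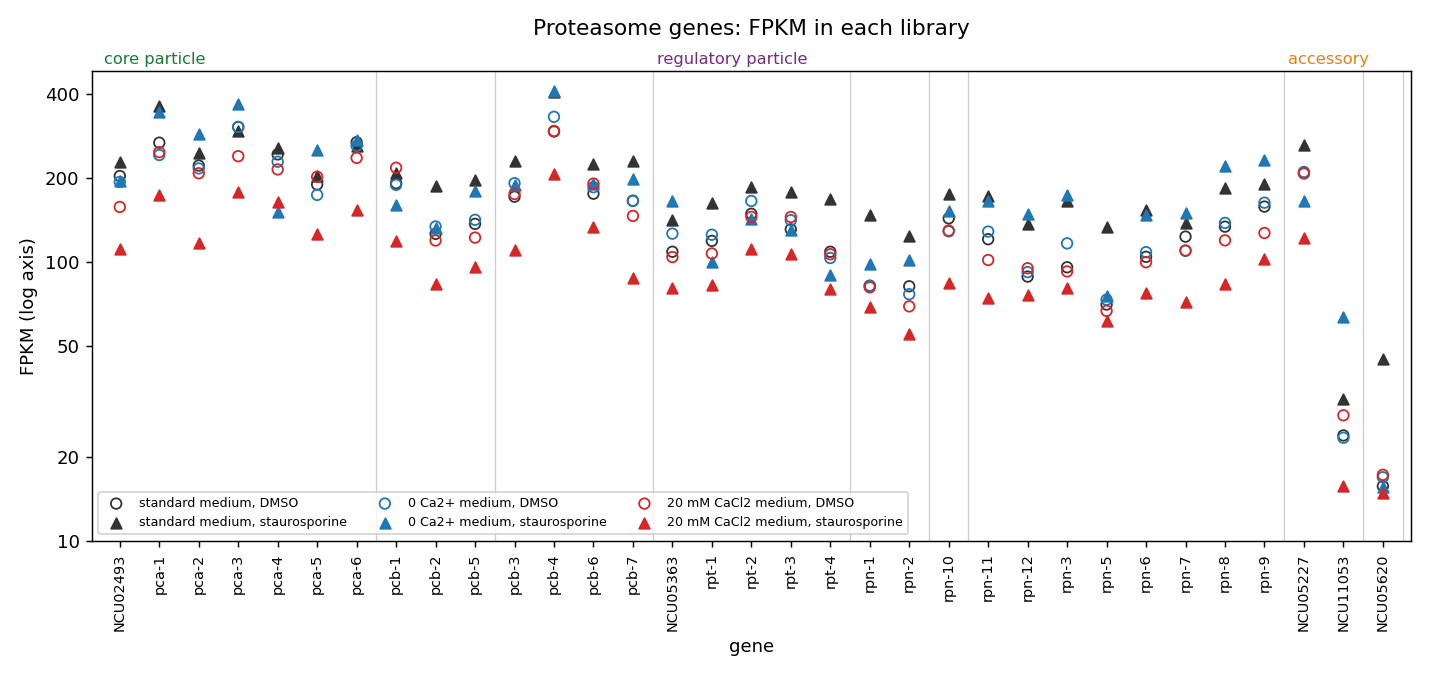
FPKM (log axis) of the 33 proteasome genes in each of the 6 libraries, 1 point per library, with open circles for DMSO, filled triangles for staurosporine and grey lines between roles. As deposited, the red triangle, 20 mM CaCl2 medium with staurosporine, is the lowest of the 6 points for 32 of the 33 genes, a count not made over all genes. At equal FPKM sums 23 of the 33 are above their DMSO level in that medium.

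Proteasome subunits were well expressed in every library. The median level of the 14 core genes was 197, 192 and 204 FPKM in the standard, 0 Ca2+ and 20 mM CaCl2 media with DMSO, and 230.3, 197 and 122 with staurosporine. For the 16 regulatory genes it was 114, 121 and 105 with DMSO and 164, 148 and 80.1 with staurosporine. The core median was thus above the regulatory median in every library. The median subunit stood between percentiles 90.9 and 95.3 of the 9691 genes, lowest in 20 mM CaCl2 medium with staurosporine and highest in standard medium with staurosporine. The 30 subunits together took 0.507, 0.506 and 0.446% of the summed FPKM with DMSO and 1.21, 0.807 and 0.473% with staurosporine, in the same order of media. As a share of the library, the 20 mM CaCl2 medium with staurosporine was therefore close to the DMSO libraries, while the other staurosporine libraries were above them. The order of the 30 subunits by FPKM was much alike in most libraries. Against the standard DMSO library, Spearman's rho over the 30 genes was 0.98 for each of the other DMSO libraries and 0.95 for staurosporine in standard medium and in 20 mM CaCl2 medium. It was 0.79 for staurosporine in 0 Ca2+ medium, where single subunits moved most relative to each other. These values describe pairs of libraries and are not tests.

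Ratios depend on how the libraries are scaled, and so does which library of a gene is highest or lowest. Below, these are named from the FPKM as deposited. In the order standard, 0 Ca2+ and 20 mM CaCl2, the FPKM values sum to 940590, 953522 and 1001098 with DMSO and to 500315, 696047 and 666121 with staurosporine. Scaling to equal sums therefore moves the median ratio of all genes for staurosporine against DMSO by 0.83, 0.41 and 0.53 in these media, and for staurosporine in 20 mM CaCl2 against standard medium by -0.39. Centring on the median of genes whose mean FPKM reached 10 moves it by 0.027, 0.23, 0.23 and 0.12. Read depth is unknown, and in such bulk samples fewer cells with a transcript and less of it per cell cannot be told apart. By the gene spans of the RefSeq table, 17 of the 33 genes overlap another gene. They are pca-3, pca-4, pca-5, pca-6, pcb-3, pcb-5, pcb-7, rpt-1, rpt-2, NCU05363, rpn-3, rpn-7, rpn-8, rpn-9, rpn-10, rpn-12 and NCU05227. Whether reads were assigned by strand is not given in the sources used here. For these genes, reads of the gene and of its neighbour therefore cannot be told apart.

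Among the alpha ring genes, which form the gate of the core, pca-1 stood at 267, 241 and 247 FPKM with DMSO and 363, 343 and 173 FPKM with staurosporine, in the order standard, 0 Ca2+ and 20 mM CaCl2 medium, as throughout. As deposited, the pattern of pca-1 is that of most core genes: DMSO values close together, staurosporine values higher in the first pair of media and lowest of all in 20 mM CaCl2 medium. The subunit pca-2 had 221, 216 and 207 FPKM with DMSO and 244, 288 and 117 FPKM with staurosporine. For pca-3, whose S. cerevisiae counterpart closes the gate, the values were 304, 304 and 239 FPKM with DMSO and 294, 369 and 178 FPKM with staurosporine. As deposited, both had their highest value in 0 Ca2+ medium with staurosporine, as had pca-5 and pca-6. The only subunits below their DMSO level with staurosporine in standard medium as deposited were pca-3 and pca-6, with ratios of -0.048 and -0.049. The gene pca-4 departed from the others, with 242, 228 and 214 FPKM with DMSO and 257, 151 and 163 FPKM with staurosporine. It is the 1 gene of the 33 whose lowest library as deposited was 0 Ca2+ medium with staurosporine, at 0.664 times its DMSO level. NCU02493, annotated as component C1, had 203, 193 and 157 FPKM with DMSO and 227, 195 and 111 FPKM with staurosporine. The values of pca-5 were 189, 174 and 202 FPKM with DMSO and 203, 252 and 126 FPKM with staurosporine. For pca-6 the values were 268, 260.3 and 235 FPKM with DMSO and 259, 273 and 154 FPKM with staurosporine. Apart from pca-4, every alpha ring gene had its lowest value as deposited in 20 mM CaCl2 medium with staurosporine. The share of all genes lowest in that library was not counted. At equal sums 4 of the 7 alpha ring genes are above their DMSO level in that medium.

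Of the beta ring, pcb-1, pcb-2 and pcb-5 carry the proteolytic sites, which in yeast cleave after acidic, basic and hydrophobic residues respectively. The values of pcb-1 were 191, 189 and 217 FPKM with DMSO and 207, 160.3 and 119 FPKM with staurosporine. It had the lowest staurosporine ratio of all 33 genes in 20 mM CaCl2 medium, -0.86, or 0.550 times, and its DMSO value there was the highest of its 6 as deposited. For pcb-2 the values were 126, 134 and 119 FPKM with DMSO and 186, 132 and 82.9 FPKM with staurosporine. For pcb-5 they were 137, 141 and 122 FPKM with DMSO and 197, 179 and 95.4 FPKM with staurosporine. With staurosporine in standard medium pcb-2 was at 1.48 and pcb-5 at 1.44 times its DMSO level, the highest ratios of the core particle there. The remaining beta subunits are structural. The subunit with the highest FPKM in 5 of the 6 libraries, pcb-4, had 293, 331 and 294 FPKM with DMSO and 404, 408 and 207 FPKM with staurosporine. The gene pcb-7 had 165, 165 and 146 FPKM with DMSO and 230.5, 198 and 87.03 FPKM with staurosporine, and the last value is 0.380 times the staurosporine value in standard medium, the lowest such ratio of the core particle. With staurosporine the other structural genes differed less between these media, and pcb-3 had 171, 191 and 175 FPKM with DMSO and 230.2, 188 and 110.5 FPKM with staurosporine. The last of them, pcb-6, had 175, 185 and 190.5 FPKM with DMSO and 225, 189 and 133 FPKM with staurosporine. As deposited, all 7 beta ring genes were lowest in 20 mM CaCl2 medium with staurosporine, again without a count over all genes. At equal sums 4 of the 7 are above their DMSO level in that medium.

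The ATPases of the regulatory particle unfold the substrate, and rpt-2 also opens the gate of the core in yeast. The product text names 5 of them. The values of rpt-1 were 119, 125 and 107 FPKM with DMSO and 163, 99.9 and 82.4 FPKM with staurosporine. Those of rpt-2 were 148, 165 and 145 FPKM with DMSO and 185, 143 and 111 FPKM with staurosporine. The gene rpt-3 had 131, 141 and 145 FPKM with DMSO and 178, 129.7 and 106 FPKM with staurosporine. These 3 genes, and rpt-4 with 109, 103 and 106 FPKM with DMSO and 168, 89.2 and 79.7 FPKM with staurosporine, were higher than with DMSO in standard medium and lower in 0 Ca2+ and 20 mM CaCl2 medium as deposited, with the lowest value in 20 mM CaCl2 medium with staurosporine. The fifth, NCU05363, annotated as protease regulatory subunit 8, had 109, 126 and 104 FPKM with DMSO and 141, 165 and 80.5 FPKM with staurosporine and was higher with staurosporine in 0 Ca2+ medium. The symbol rpt-5 belongs to a gene whose product text reads hypothetical protein, so the pattern did not take it, and it was looked up after the other values were seen. It stood at 113, 125 and 108 FPKM with DMSO and 142, 91.9 and 77.4 FPKM with staurosporine, in each medium on the same side of its DMSO level as rpt-1 to rpt-4 as deposited. On chromosome I, rpt-4 lies beside the core gene pcb-7 with 1 gene between them, and in 0 Ca2+ medium their staurosporine ratios were -0.21 and 0.26.

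The scaffold subunits of the base hold the ATPase ring and the ubiquitin receptors. Of these, rpn-2 had 81.6, 76.4 and 69.1 FPKM with DMSO and 124, 102 and 55.1 FPKM with staurosporine. The other, rpn-1, which binds the shuttle factors that deliver tagged proteins, had 81.98, 81.9 and 80.9 FPKM with DMSO and 147, 97.99 and 68.96 FPKM with staurosporine. Both were more than 1.5 times their DMSO level in standard medium, at 1.51 and 1.78 times. The ubiquitin receptor rpn-10 had 143, 128 and 129 FPKM with DMSO and 175, 152 and 84.1 FPKM with staurosporine. It had the lowest staurosporine ratio of the regulatory particle in 20 mM CaCl2 medium, -0.61.

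The lid holds the enzyme that cuts off the ubiquitin tag, rpn-11, with its partner rpn-8 and 6 scaffold subunits. The values of rpn-11 were 120.4, 128 and 101 FPKM with DMSO and 171, 165 and 74.1 FPKM with staurosporine. Its partner rpn-8 had 134, 138 and 119 FPKM with DMSO and 184, 221 and 83.02 FPKM with staurosporine. The last of these values was 0.379 times the staurosporine value in 0 Ca2+ medium, and for rpn-11 it was 0.435 times that in standard medium, the lowest such ratios of the regulatory particle. Among the scaffold subunits, rpn-3 had 95.5, 116 and 92.3 FPKM with DMSO and 165, 174 and 80.8 FPKM with staurosporine, the highest mean ratio over the 3 media of all 33 genes. The values of rpn-12, the last subunit to join the lid in yeast, were 88.4, 91.7 and 94.7 FPKM with DMSO and 137, 148 and 75.7 FPKM with staurosporine. It had the highest staurosporine ratio of the regulatory particle in 0 Ca2+ medium, 0.69. The scaffold subunit rpn-5 had 70.2, 73.04 and 66.6 FPKM with DMSO and 133, 75.04 and 61.4 FPKM with staurosporine. Its ratio in standard medium, 0.92, was the highest of the 30 subunits, while in 0 Ca2+ medium it was 0.038. The gene rpn-6, whose yeast counterpart also touches the core, had 104, 108 and 99.6 FPKM with DMSO and 154, 147 and 77.05 FPKM with staurosporine. For rpn-7 the values were 123, 109 and 109.7 FPKM with DMSO and 138, 149.8 and 71.6 FPKM with staurosporine, the lowest ratio of the regulatory particle in standard medium at 0.16. The scaffold subunit rpn-9 had 158, 163 and 127 FPKM with DMSO and 189, 232 and 102 FPKM with staurosporine. With staurosporine all 8 lid genes were above their DMSO level in standard and in 0 Ca2+ medium and, as deposited, below it in 20 mM CaCl2 medium.

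The highest staurosporine ratios in standard and in 0 Ca2+ medium belonged to accessory genes. NCU05227 is named for Ump1, which in yeast is needed to mature the core and is then degraded by it, and it had 208, 209.7 and 207 FPKM with DMSO and 262, 165 and 121 FPKM with staurosporine. It was higher with staurosporine in standard medium and lower in the other media, although at equal sums it is at 0.11 in 0 Ca2+ medium. NCU11053, whose yeast and human counterparts are chaperones that assemble the ATPase ring, had 23.8, 23.4 and 28.1 FPKM with DMSO and 32.1, 63.4 and 15.7 FPKM with staurosporine. Its value in 0 Ca2+ medium with staurosporine was 2.64 times its DMSO level, and no other proteasome gene was at least 2 times higher there, against 18.7% of all genes. NCU05620, whose yeast counterpart Blm10 caps the core in place of the regulatory particle, had 15.7, 16.9 and 17.2 FPKM with DMSO and 44.6, 15.5 and 14.8 FPKM with staurosporine. A single library stands apart for it, standard medium with staurosporine, at 2.74 times its DMSO level. It was the only proteasome gene at least 2 times higher there, against 13.4% of all genes.

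For staurosporine in standard medium, the regulatory particle had higher ratios than the core particle. The median ratio was 0.48 for the regulatory particle, or 1.40 times, and 0.26 for the core, or 1.20 times, against 0.11 for all genes. All 16 regulatory genes and 12 of 14 core genes were above their DMSO level. At least 1.5 times higher were 6 regulatory genes (rpn-5, rpn-1, rpn-3, rpt-4, rpn-12 and rpn-2), no core gene, and NCU05620, which is 7 of 33 genes against 27.4% of all genes, a share below the background. None was 1.5 times lower, against 23.8%. Within the core, the beta ring had a median of 0.46 and the alpha ring 0.099, with pca-1 the only alpha gene in the range of most beta genes. Scaling to equal sums put all 33 genes above their DMSO level, against 81.8% of all genes, and 30 of them at least 2 times above it, against 47.2%, with medians of 1.39 and 1.17 against 0.94 for all genes. The authors' deposited table called 2 of the 33 genes significant, NCU05620 with a q-value of 0.000288 and rpn-5 with 0.0421, against 26.7% of the genes it tested. Those q-values come from single libraries.

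Gene length also differed between the particles, and its part in these ratios was not tested. The median gene length was 1698 bp for the core and 2322.5 bp for the regulatory particle, and over all genes Spearman's rho of the ratio with length was 0.23 in standard, -0.22 in 0 Ca2+ and 0.35 in 20 mM CaCl2 medium. The regulatory median exceeded the core median by 0.22, 0.21 and 0.15 in these media. With the trend of all genes with length removed, it exceeded it by 0.14, 0.42 and 0.057. The order of the particles was thus the same in all 3 media with and without the trend. The activator gene NCU05620 is the longest of the 33, at 7322 bp, and its ratio in standard medium was 1.45 as deposited and 1.03 with the trend removed.

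In 0 Ca2+ medium both medians for staurosporine against DMSO were again above 0, and the genes were spread more widely. The median ratio was 0.38 for the regulatory and 0.17 for the core particle, against -0.092 for all genes, and the core median is -0.080 once the length trend is removed. The SD of the ratio over the 33 genes was 0.386, against 0.297 in standard and 0.190 in 20 mM CaCl2 medium. Over all genes it was 1.37, against 1.06 and 0.622. Higher by at least 1.5 times were NCU11053, rpn-12 and rpn-8, 3 of 33 against 28.2% of all genes, and lower by that much was pca-4 alone, against 31.9%. These counts depend on the scaling: 19 of 33 were at least 1.5 times higher at equal sums, against 41.0% of all genes, and 13 after centring, against 34.8%. None was then 1.5 times lower, against 21.3% at equal sums and 25.6% after centring. The regulatory particle divided by role: 4 of 5 ATPases were below their DMSO level, with a median of -0.21, and all 11 other genes were above it, with a median of 0.44. The difference between these medians, -0.65, was -0.65 at equal sums, which puts all 5 ATPases above their DMSO level as centring does for 4 of them, and -0.63 with the length trend removed, where 10 of the 11 other genes stay above it. In standard and 20 mM CaCl2 medium the same difference was -0.12 and -0.054. This grouping was seen in the values first, so it is a description. In the authors' deposited table NCU11053, with a q-value of 0.00450, was the only one of the 33 called, against 35.9% of the genes tested.

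In 20 mM CaCl2 medium, proteasome mRNA was lower with staurosporine as deposited, and mostly higher at equal sums. The median ratio was -0.52 for the core, or 0.699 times, and -0.37 for the regulatory particle, or 0.774 times, against -0.14 for all genes. At least 1.5 times lower were 6 core genes (pcb-1, pca-2, pcb-7, pca-5, pcb-3 and pca-6), the regulatory genes rpn-10 and rpn-7, and the assembly genes NCU05227 and NCU11053. These are 10 of 33 genes against 21.1% of all genes. None was 2 times lower, against 6.16% of all genes, and none was 1.5 times higher, against 9.12%. The 33 ratios lay close together, from -0.86 for pcb-1 to -0.12 for rpn-5. The sign depends on the scaling: at equal sums the medians were 0.067 and 0.21, and 23 of 33 genes were above their DMSO level, against 76.3% of all genes. The median of the 33 genes minus that of all genes was -0.31 as deposited and -0.26 at equal sums. The authors' deposited table called none of the 33, against 6.14% of the genes tested.

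**Figure D2:**
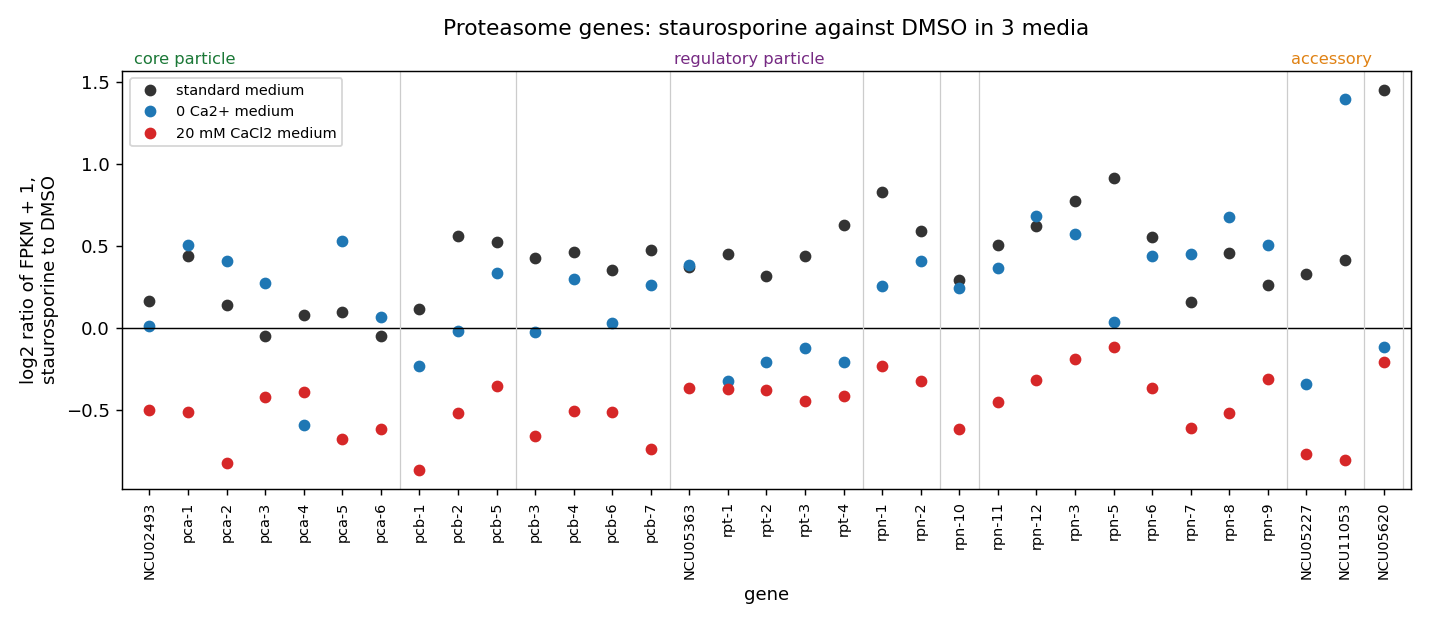
Log2 ratio of FPKM + 1, staurosporine to DMSO, for each of the 33 proteasome genes in each medium, 1 point per pair of libraries, as deposited. The points of the 20 mM CaCl2 medium all lie below 0, from -0.86 to -0.12, and in 31 of 33 genes the point of the standard medium lies above 0.

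Direction by medium was shared by nearly all of the genes. Above their DMSO level in standard medium and below it in 20 mM CaCl2 medium were 31 of 33 genes, the exceptions being pca-3 and pca-6, against 27.2% of 7415 genes. At equal sums this does not hold, since the 33 genes are then above their DMSO level in standard medium and 23 of them also in 20 mM CaCl2 medium. None of the 33 genes lay on the same side of its DMSO level in all 3 media as deposited. Of the 7415 genes, 1010 lay above it and 1709 below it in all 3. For 31 of the 33 this follows from their opposite signs in standard and 20 mM CaCl2 medium. Treated as repeats of 1 contrast, the 3 media therefore gave mean ratios near 0, with a median of -0.052 for the core and 0.15 for the regulatory particle, against -0.035 for all genes. limma's moderated test with Benjamini-Hochberg adjustment called 12 of 7415 genes, or 0.162%, at an adjusted p below 0.05, and none was a proteasome gene. At an unadjusted p below 0.05 there were 1047 genes as deposited, or 14.1%, and again no proteasome gene. At equal sums there were 1343 of 7415 genes, among them 2 proteasome genes, both higher, and no proteasome gene was called after adjustment. As deposited, the smallest p of the 33 belonged to rpn-3, with a mean ratio of 0.39 and a moderated standard error of 0.36 over 3 media. Its p was 0.318 and its adjusted p 0.662. That test asks for a shift common to the media, and does not test the difference between them.

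The difference between media was seen most directly between the staurosporine libraries. In 20 mM CaCl2 against standard medium, all 33 genes were lower by at least 1.5 times, against 26.3% of all genes, and 17 were lower by at least 2 times, against 12.5%. Those 17 were 7 core, 8 regulatory and 2 accessory genes. Lower by any amount were 56.9% of all genes. Core and regulatory particles had nearly the same median, -0.997 and -1.002, and ratios ran from -1.53 for NCU05620 to -0.65 for pca-4. Their SD was 0.200, against 0.948 over all genes. At equal sums all 33 were at least 2 times lower, against 26.2% of all genes, with medians of -1.41 and -1.42. Centring on the median of the more abundant genes gave medians of -0.87 and -0.88, with 31 genes at least 1.5 times lower, against 21.1% of all genes, and 6 at least 2 times lower, against 9.9%. The difference from the median of all genes was -0.89 as deposited, -0.91 at equal sums and -0.90 with the length trend removed.

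Against 0 Ca2+ medium, the staurosporine library of the 20 mM CaCl2 medium was lower for 32 of 33 genes, against 53.1% of all genes. The exception was pca-4, at 0.11. Lower by at least 1.5 times were 22 genes, against 35.9%, and by at least 2 times 10, against 25.1%. The median was -0.86 for the core and -0.90 for the regulatory particle. The ATPases, at -0.29, were nearer to no difference than the other regulatory genes, at -0.96. Between 0 Ca2+ and standard medium with staurosporine, 21 of 33 genes were lower in 0 Ca2+, against 50.8% of all genes. At least 1.5 times lower were 6 of them (NCU05620, rpt-4, rpn-5, pca-4, rpt-1 and NCU05227), against 29.6%, and NCU11053 alone was 1.5 times higher, against 29.1%. At equal sums 32 of 33 were lower, against 66.1% of all genes, 18 of them by at least 1.5 times, against 45.6%, and 7 by at least 2 times, against 31.2%. None was then 1.5 times higher, against 19.2%. The medians were -0.18 for the core and -0.13 for the regulatory particle. These 3 comparisons share their libraries with each other and with those against DMSO, so they are not independent of them.

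**Figure D3:**
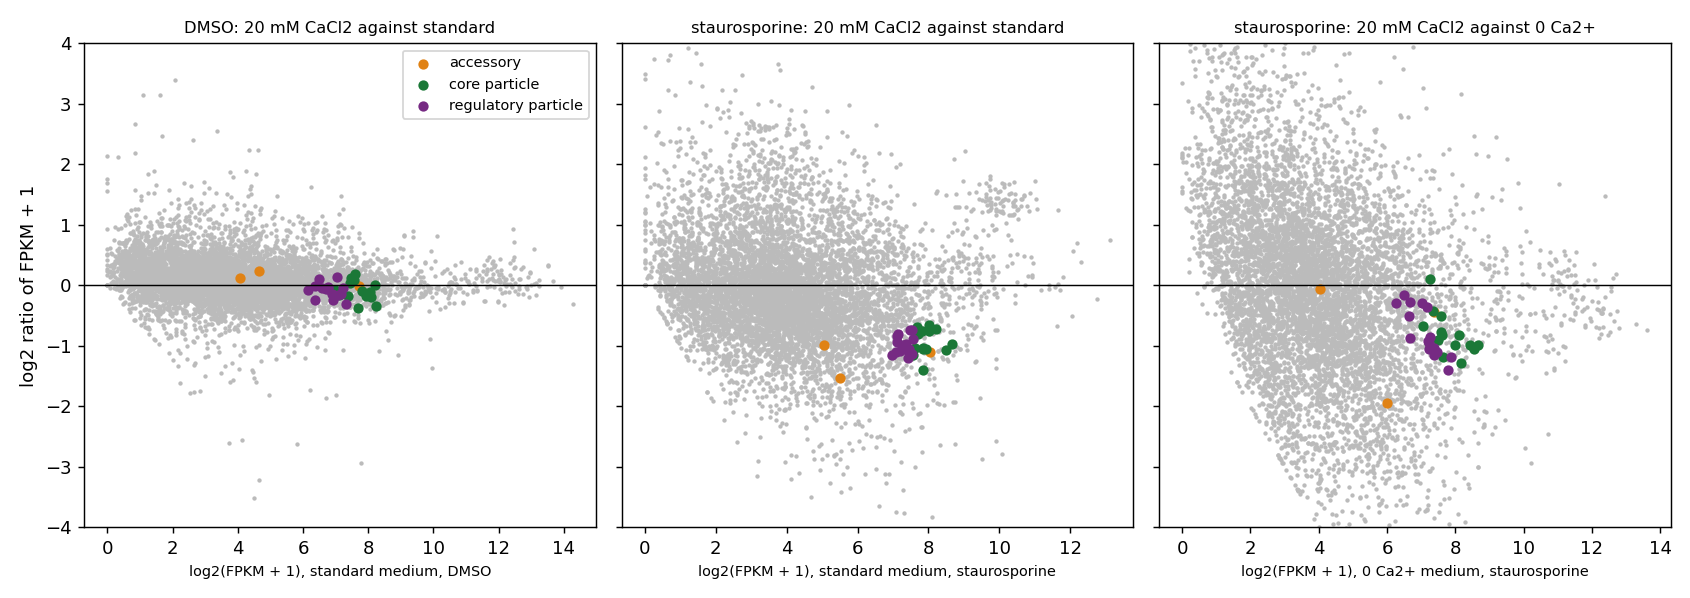
Log2 ratio of FPKM + 1 between media (vertical, clipped at -4 and 4) against log2(FPKM + 1) in the reference library (horizontal) for all genes whose mean FPKM reached 1 (grey) and for the proteasome genes (coloured by particle). For 20 mM CaCl2 against standard medium, the coloured points lie between -0.37 and 0.23 with DMSO, left, and with staurosporine, centre, all of them lie at or below -0.65.

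With DMSO, proteasome mRNA differed little between media. In 0 Ca2+ against standard medium the median ratio was -0.011 for the core and 0.054 for the regulatory particle, against 0.12 for all genes, and the regulatory median is -0.041 after centring. In this comparison 19 of 33 genes were above 0, against 64.2% of all genes, and the ratios ran from -0.17 for rpn-7 to 0.28 for rpn-3. None of the 33 was 1.5 times higher, against 10.7% of all genes, or 1.5 times lower, against 5.04%. In 20 mM CaCl2 against standard medium the medians were -0.10 and -0.069, against 0.073 for all genes. Below 0 were 24 of 33 genes, against 39.8% of all genes, with the lowest ratio, -0.37, in NCU02493 and the highest, 0.23, in NCU11053. Again none was 1.5 times higher or lower, against 7.9% and 2.74% of all genes. The authors' deposited tables called none of the 33 in either comparison, against 3.94% and 1.75% of the genes tested.

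**Figure D4:**
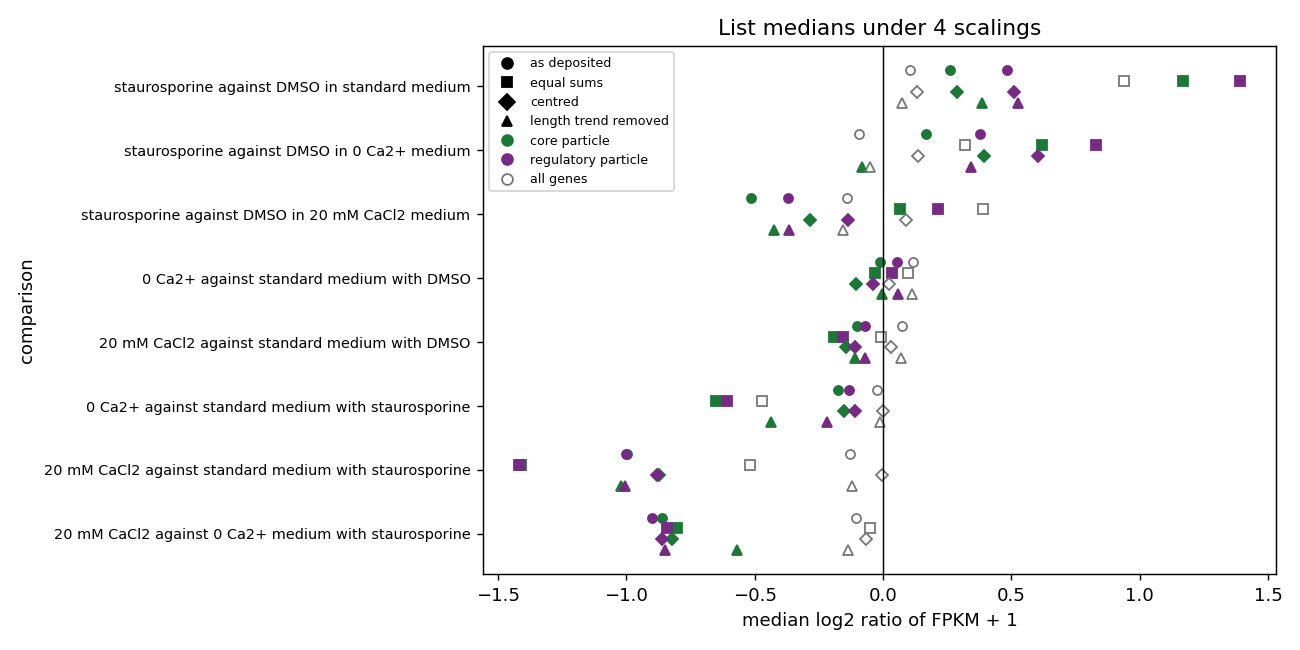
Median log2 ratio of FPKM + 1 (horizontal) of the core particle (green), the regulatory particle (purple) and all genes (open grey) in 8 comparisons (vertical) under 4 scalings (symbols). Staurosporine in 20 mM CaCl2 against DMSO changes sign at equal sums, while 20 mM CaCl2 against standard medium with staurosporine stays at or below -0.87 for both particles.

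Other genes of protein turnover were counted from lists by product text, chosen with these results known. Ubiquitin conjugation and removal, which tags and untags the substrates, had 63 genes with a median of 0.30 for staurosporine in standard, -0.021 in 0 Ca2+ and -0.27 in 20 mM CaCl2 medium. This list, taken by name, also holds genes for ubiquitin itself, for Cdc48 and for enzymes of the ubiquitin-like protein NEDD8. It shares NCU06672, an autophagy enzyme, with the list of vacuolar proteolysis and autophagy below. In standard medium 26 of the 63 were at least 1.5 times higher and 6 lower, against 27.4% and 23.8% of all genes. In 20 mM CaCl2 medium 2 were higher and 16 lower, against 9.12% and 21.1%, and at equal sums the list's median is 0.25 there and 0.41 in 0 Ca2+ medium. The member with the largest absolute mean ratio, -1.48, was ubi::crp-6, which encodes ubiquitin fused to a ribosomal protein. It had 13025, 10652 and 13622 FPKM with DMSO and 2067, 6224 and 6799.6 FPKM with staurosporine. It shares its ubiquitin sequence with other ubiquitin genes, so its reads may be split between them. NCU03610, the conjugating enzyme for the ubiquitin-like protein NEDD8, had 43.1, 36.5 and 41.6 FPKM with DMSO and 19.6, 13.9 and 31.4 FPKM with staurosporine. NCU08345, a ubiquitin-conjugating enzyme, had 381, 329 and 494 FPKM with DMSO and 159, 254 and 216 FPKM with staurosporine. All 3, picked for the size of their mean ratio in either direction, were lower with staurosporine in each medium as deposited. At equal sums NCU03610 is at 0.18 in 20 mM CaCl2 medium and NCU08345 at 0.078 in 0 Ca2+ medium.

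The COP9 signalosome and the translation factor eIF3 are complexes built like the proteasome lid. The 8 COP9 genes had medians of 0.47, -0.045 and -0.30 for staurosporine in standard, 0 Ca2+ and 20 mM CaCl2 medium, and 1.35, 0.39 and 0.26 at equal sums. Of them csn-4 had 17.4, 18.5 and 18.9 FPKM with DMSO and 25.5, 44.7 and 11.96 FPKM with staurosporine. The values of csn-7 were 16.00, 16.98 and 16.6 FPKM with DMSO and 21.5, 31.2 and 14.6 FPKM with staurosporine. Those of csn-3 were 12.4, 15.1 and 15.6 FPKM with DMSO and 19.3, 23.2 and 13.1 FPKM with staurosporine. All 3 were higher with staurosporine in the first pair of media and, as deposited, lower in 20 mM CaCl2 medium, as the lid genes were, while at equal sums csn-7 and csn-3 are at 0.38 and 0.32 there. The 3 genes were picked for the size of their mean ratio. The 8 COP9 genes had a median of -0.045 in 0 Ca2+ medium, so the likeness to the lid does not cover the list. The 11 eIF3 genes had medians of -0.95, -2.02 and -0.13 as deposited, and -0.046, -1.58 and 0.46 at equal sums. For NCU05889 the values were 273, 265 and 252 FPKM with DMSO and 114, 45.8 and 218 FPKM with staurosporine. For NCU02813 they were 358, 339 and 310.5 FPKM with DMSO and 109.7, 93.2 and 236 FPKM with staurosporine. For un-10 they were 226, 212 and 212 FPKM with DMSO and 96.5, 54.5 and 200.3 FPKM with staurosporine. With staurosporine, eIF3 genes were higher in 20 mM CaCl2 than in standard medium in 11 of 11 cases, against 43.1% of all genes, with a median of 0.68. At equal sums they were higher in 10 of 11 cases, against 26.8%, with a median of 0.27. As deposited the proteasome median was -1.02 and that of the COP9 genes -0.53.

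Many chaperones fold proteins that may otherwise reach the proteasome. The list, taken by name, also holds copper, histone and vacuolar transporter chaperones. It had 54 genes, of which 52 passed the level filter. Their medians were -0.29, -0.96 and -0.21, with 31 of 52 at least 1.5 times lower with staurosporine in 0 Ca2+ medium, against 31.9% of all genes, and at equal sums the medians in standard and 20 mM CaCl2 medium are 0.60 and 0.37. The widest ratio was that of hsp70-2, with 2579, 2550.1 and 2441 FPKM with DMSO and 527, 87.1 and 2464 FPKM with staurosporine. Its level differed little in 20 mM CaCl2 medium and was lowest in 0 Ca2+ medium with staurosporine. The chaperone NCU00692 had 173, 151 and 136 FPKM with DMSO and 42.6, 18.96 and 116 FPKM with staurosporine. NCU01516, a mitochondrial co-chaperone, had 163, 263 and 169.8 FPKM with DMSO and 50.8, 46.3 and 121 FPKM with staurosporine. Both were lower with staurosporine in each medium as deposited, while at equal sums they are at 0.36 and 0.099 in 20 mM CaCl2 medium. The vacuole is the other main site of protein breakdown. Its 9 genes of proteolysis and autophagy had medians of 0.89, 0.96 and -0.70, the same signs as both particles of the proteasome as deposited, and here the sign in 20 mM CaCl2 medium also holds at equal sums, at -0.19. Among them pep4, the vacuolar protease A, had 144, 169 and 170.4 FPKM with DMSO and 425, 565 and 111 FPKM with staurosporine. Carboxypeptidase Y, NCU00477, had 116, 138 and 138 FPKM with DMSO and 303, 263 and 78.4 FPKM with staurosporine. The aminopeptidase NCU04192 had 80.8, 76.9 and 83.4 FPKM with DMSO and 150.3, 187 and 53.6 FPKM with staurosporine. In 20 mM CaCl2 against standard medium with staurosporine all 9 were lower, against 56.9% of all genes, with a median of -1.47.

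The gene with the symbol rpn-4, a C2H2 transcription factor that lies outside the product pattern, was looked up after the other values were seen. It had 31.00, 36.05 and 15.00 FPKM with DMSO and 22.05, 10.8 and 16.6 FPKM with staurosporine. Its ratio for staurosporine was -0.47 in standard, -1.65 in 0 Ca2+ and 0.14 in 20 mM CaCl2 medium, opposite in sign to the median of each particle in every medium as deposited. At equal sums its ratio is 0.41 in standard and 0.70 in 20 mM CaCl2 medium, the same signs as theirs. With DMSO, rpn-4 was also lower in 20 mM CaCl2 than in standard medium, with a ratio of -1.001, where the particles had medians of -0.10 and -0.069.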

How the data were processed

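Per the submitters' processing notes, the authors used TopHat2 2.0.4, Cufflinks 2.0.2 and Cuffdiff. Which annotation and genome build lie behind the tables is not given in the sources used here. Per the file headers, each of the 5 deposited tables, 1 per comparison of 2 libraries, holds FPKM of both libraries for 9691 genes, their linear ratio and log2 ratio, a test statistic (a score), and p-values and q-values with a call. A library present in several tables had the same FPKM in each (0 of 9691 genes differed), so staurosporine libraries were also compared across tables. The tables hold no counts and the depth is unknown, so no counting error is given. Gene symbols, chromosomes, lengths and overlaps were read from RefSeq's gene table (assembly NC12), in which 9141 of the IDs were found by locus tag. No coordinates are given, the tables' build being unknown, and no sequences were used here.

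The log2 ratio of 2 libraries was taken after adding 1 to each FPKM, so that changes of low genes are understated, where the mean FPKM of the libraries compared reached 1. All 33 proteasome genes passed. With 1 library per group there is no test within a medium or between media; genes were counted at 1.5 and 2 times, beside the same share of all genes. The 3 within-medium ratios of 7415 genes were tested against 0 with limma 3.58.1 in R 4.3.3 (moderated, with a mean trend, two-sided, Benjamini-Hochberg adjustment), taking the media as repeats. The fit was also run on simulated ratios with planted shifts far larger than the mean ratios of the proteasome genes. That run does not show whether shifts of their size would be called. Nothing says that the libraries came from separate cultures beyond their labels. Other steps used Python 3.11.15 (numpy 2.4.6, pandas 2.3.3, scipy 1.17.1, matplotlib 3.10.9).

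The proteasome genes, the other gene lists and the tests were chosen with earlier results of these data known. Values in every library are given for the genes with the highest and lowest ratio of the core particle, the ATPases, the other regulatory genes and the accessory genes in each comparison, and for the 3 genes with the largest mean ratio in each further list. The symbols rpt-5 and rpn-4 were added after values were seen. The settings varied were the pseudocount (0.1 and 5), the level filter (none, or a mean FPKM of 10), centring on genes whose mean FPKM reached 10, equal FPKM sums, an unpaired fit, genes of status OK in the authors' tables alone, a minimum fold of 2, and leaving out each medium. Removal of the trend with gene length, counting NCU11053 in the regulatory particle, adding rpt-5, and all settings for staurosporine libraries between media were added after the data were seen.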

Additional observations from a re-analysis of the deposited data

Results flagged for a closer look

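For staurosporine against DMSO, both particles had opposite signs in 2 media as deposited. The core particle's median log2 ratio was 0.26 in standard and -0.52 in 20 mM CaCl2 medium, a difference of -0.78. For the regulatory particle the medians were 0.48 and -0.37, a difference of -0.85. With 1 library per group the difference was not tested. At equal FPKM sums the medians of 20 mM CaCl2 medium are above 0, so that the signs no longer differ: the core medians are then 1.17 in standard and 0.067 in 20 mM CaCl2 medium, and the regulatory medians 1.39 and 0.21.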

How the results depend on the processing

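Of the alternative values and counts, 140 were taken as the same, 18 values moved, 8 reversed, and 6 counts of genes called were weaker and 3 stronger. A median was the same if it kept its direction within a tolerance, and a count if it stayed within 1.5 times. The tolerance was a log2 difference of 0.1 for a median in 1 comparison. For the mean over media it was the SD of the list's median over the 3 media, 0.42 for the core and 0.46 for the regulatory particle. These SDs are larger than the medians they judge, -0.052 and 0.15. Pairs of values are the core, then the regulatory particle. Equal FPKM sums gave 1.17 and 1.39 for staurosporine in standard, 0.62 and 0.83 in 0 Ca2+ and 0.067 and 0.21 in 20 mM CaCl2 medium, where both reversed, and 0.60 (reversed) and 0.79 over the media. With staurosporine they gave -0.65 and -0.61 for 0 Ca2+ and -1.41 and -1.42 for 20 mM CaCl2 against standard medium. Centring gave 0.39 and 0.60 for staurosporine in 0 Ca2+, -0.28 and -0.14 in 20 mM CaCl2 medium, -0.87 and -0.88 for 20 mM CaCl2 against standard medium with staurosporine, 0.11 for the core over the media (reversed) and -0.041 for the regulatory particle in 0 Ca2+ against standard medium with DMSO (reversed). Removing the length trend moved the core particle to 0.39 in standard and -0.080 in 0 Ca2+ medium (reversed), and with staurosporine to -0.44 for 0 Ca2+ against standard and -0.57 for 20 mM CaCl2 against 0 Ca2+ medium. Leaving out each medium in turn, the median over the media ran from -0.24 to 0.24 for the core, above 0 without the 20 mM CaCl2 pair, and from -0.013 to 0.41 for the regulatory particle, below 0 without the standard pair. Equal sums multiply every FPKM of a library by 1 factor and centring subtracts 1 value from every ratio of a comparison; for the length trend the cause was not tested. The count of genes called over the media, 12 as reported, was 6 with a pseudocount of 0.1, 26 at equal sums, 0 with a pseudocount of 5, without a filter, after centring and with the length trend removed, and from 0 (without the standard pair) through 35 (without 0 Ca2+) to 536 (without 20 mM CaCl2) with 1 medium left out. The count includes none of the 33 proteasome genes under any of these. The 12 come from ratios within each medium, which pairs the libraries by medium, and the fit without that pairing called 13 genes. The lack of counts and of a second library per group limits what these values show.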
